A study of Arabidopsis thaliana with 3 samples.

Results

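The 7 genes described here encode storage proteins and an oil body protein of the Arabidopsis thaliana seed. They are the albumin genes SESA1, SESA2, SESA3 and SESA4, the globulin genes CRA1 and CRU2, and the oleosin gene OLEO2. They were chosen by position, as all rows lying wholly within the albumin array on chromosome 4 and the rows at 3 given loci on chromosomes 1 and 5, and they are 7 of the 33857 rows in each deposited table. The tables hold RNA sequencing values for 3 organs of wild-type Col-0 plants, leaf, inflorescence and silique (the fruit with its seeds), with 1 library per organ. All plants were treated alike: after 2 weeks on plates they went to soil under 16 h of light, were shot at 3 weeks with bare 0.6 µm gold particles as a mock transformation, and were harvested 18 days later, at 5.5 weeks. With 1 library per organ no difference has a replicate check, and no error or p-value was computed. Values are FPKM, that is, fragments per kilobase of transcript relative to the total of the library, so levels can be set side by side between genes. How many fragments lie behind each value is not known.

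Seeds of Arabidopsis store nitrogen and sulphur in albumins and globulins, which are made in the embryo during maturation, carried to protein storage vacuoles and cleaved there. Carbon is stored as oil in droplets coated by oleosins. The genes are switched on in the maturing seed by the transcription factors LEC1, LEC2, FUS3 and ABI3 together with bZIP factors, and they are held off in vegetative organs by repressors such as HSI2 and by Polycomb proteins. A silique contains fruit wall, seed coat, endosperm and embryo, so in these whole-organ libraries fewer cells of a type and less RNA per cell cannot be told apart.

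All 7 genes stood far higher in silique than in the other organs, and leaf was above inflorescence for each of them. Together they took 4.62% of the summed FPKM of the silique library, against 0.0163% in leaf and 0.0104% in inflorescence. In silique they ranked between 2 and 97 of all rows by FPKM. In leaf the same genes ranked between 2712 and 17188, and in inflorescence between 6004 and 21657.

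The albumins are small proteins rich in sulphur and glutamine, cut in the vacuole into a small and a large chain. SESA1 (chromosome 4, 13607329 to 13608031, TAIR10 build) reached 3516 FPKM in silique, with 20.5 in leaf and 8.85 in inflorescence. SESA2 (chromosome 4, 13609341 to 13610075) reached 7260 FPKM in silique, with 42.9 in leaf and 23.2 in inflorescence. The silique value of each gene was more than 100 times either of the others. SESA3 (chromosome 4, 13611796 to 13612563) reached 22796 FPKM in silique, with 69.98 in leaf and 26.7 in inflorescence, the highest of the 7 genes in every organ. SESA4 (chromosome 4, 13613596 to 13614283) had 5599 FPKM in silique, 38.3 in leaf and 22.8 in inflorescence. SESA2 and SESA4 lay close to each other in all organs, with a ratio of SESA2 to SESA4 of 1.30 in silique, 1.12 in leaf and 1.02 in inflorescence.

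The globulins, also called cruciferins, are large storage proteins that assemble from subunits, each cleaved into an acidic and a basic chain. CRA1 (chromosome 5, 17756264 to 17758288) had 6563 FPKM in silique, 26.1 in leaf and 8.88 in inflorescence. CRU2 (chromosome 1, 985751 to 988146) had 2644 FPKM in silique, 8.51 in leaf and 2.96 in inflorescence. CRA1 was thus above CRU2 in every organ, by 2.48 times in silique, 3.07 times in leaf and 3.00 times in inflorescence. OLEO2 (chromosome 5, 16173393 to 16174783), which encodes a protein of the oil body surface, had 855 FPKM in silique, 1.89 in leaf and 0.712 in inflorescence. It was the lowest of the 7 genes in each organ.

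**Figure D1:**
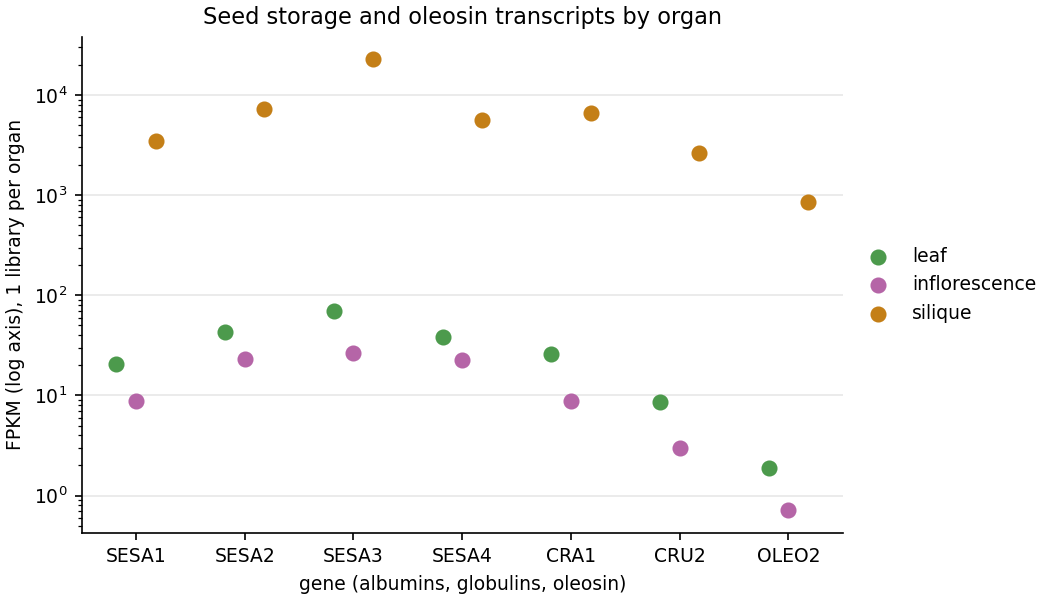
FPKM on a log axis for each of the 7 genes in leaf, inflorescence and silique, 1 point per library. Silique points lie between 855 and 22796 FPKM, and for every gene the leaf point, at 1.89 to 69.98 FPKM, lies above the inflorescence point, at 0.712 to 26.7 FPKM.

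The order of the genes was the same in leaf and inflorescence, with SESA3 highest, then SESA2, SESA4, CRA1, SESA1, CRU2 and OLEO2. In silique CRA1 stood before SESA4 and the rest of the order was unchanged. SESA2 and SESA4 in inflorescence, at 23.2 and 22.8 FPKM, and SESA1 and CRA1 in inflorescence, at 8.85 and 8.88 FPKM, are neighbours whose order rests on differences of a few percent without replicates.

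The make-up of the albumin pool differed between the organs. SESA3 supplied 58.2% of the summed FPKM of the 4 albumin genes in silique, 40.8% in leaf and 32.8% in inflorescence. SESA2 supplied 18.5%, 25.0% and 28.4% in the same order, SESA4 14.3%, 22.3% and 27.9%, and SESA1 8.98%, 11.9% and 10.8%. The ratio of SESA3 to SESA1 was 6.48 in silique, against 3.42 in leaf and 3.02 in inflorescence. The ratio of SESA2 to SESA1 moved less, at 2.06, 2.09 and 2.62. As a class the albumins made up 79.6% of the summed FPKM of the 7 genes in silique, 82.5% in leaf and 86.7% in inflorescence. The globulins made up 18.7%, 16.6% and 12.6%, and OLEO2 1.74%, 0.908% and 0.757%. The 4 albumin genes are related copies in tandem, and how fragments matching more than 1 copy were counted is not given in the sources used here, so the split among them is uncertain.

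The albumin genes form an array of 6955 bp, from 13607329 to 13614283 on chromosome 4, with gaps of 1309, 1720 and 1032 bp between consecutive loci and no other row overlapping them. The nearest named loci on either side did not share the silique excess. AT4G27130, which ends 880 bp before SESA1, had 254 FPKM in silique, 336 in leaf and 284 in inflorescence. ATK2, a kinesin gene that starts 572 bp after SESA4, had 35.95, 27.7 and 26.5 FPKM in the same order. SESA1 was therefore below AT4G27130 in leaf and inflorescence and above it in silique.

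**Figure D2:**
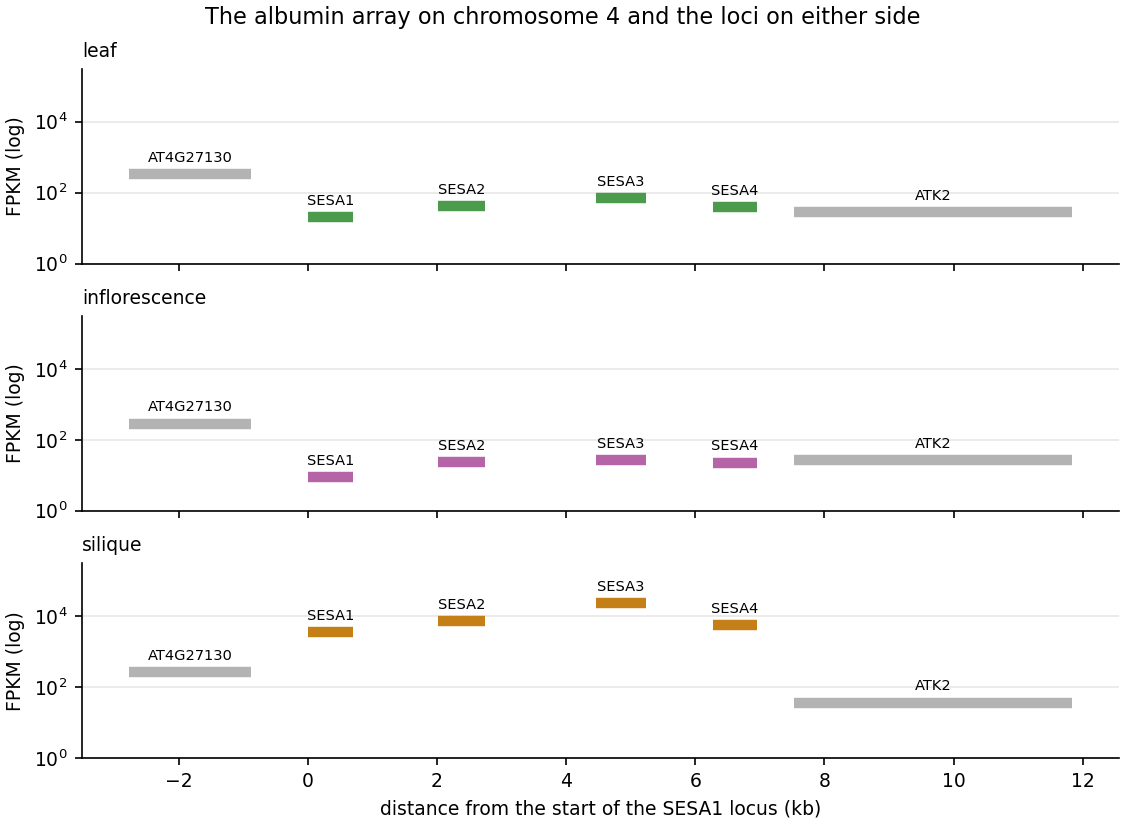
FPKM on a log axis for the 4 albumin loci and the named locus on either side, in 1 panel per organ, with distance from the start of SESA1 in kb; each bar spans its locus at the height of its value. The albumin loci reach 3516 to 22796 FPKM in silique and lie between 8.85 and 69.98 FPKM elsewhere, while AT4G27130 and ATK2 keep similar heights in all panels.

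Around the single loci, 2 of the 6 nearest named neighbours, FLA13 and AT1G03890, were at least 4-fold above inflorescence in silique. The share among all rows with at least 5 FPKM in either of these organs was 7.26%. AT5G40410 and MYB22 did not reach that minimum and could not be called. Around CRA1, the transporter gene ABCI21, 521 bp before it, had 9.47 FPKM in silique, 2.39 in leaf and 14.4 in inflorescence, and the cell surface proteoglycan gene FLA13, 2801 bp after it, had 308, 145 and 15.4 FPKM. Before CRU2, FLA9, of the same proteoglycan family as FLA13, had 167 FPKM in silique, 131 in leaf and 70.6 in inflorescence. AT1G03890, a cupin gene related to the globulins, starts 1051 bp after CRU2 and had 182, 1.27 and 0.996 FPKM. Next to OLEO2, AT5G40410 was under 1 FPKM in all 3 organs, and MYB22 was listed at 0 in leaf and inflorescence and at 2.26 FPKM in silique.

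Silique against inflorescence set the fruit beside the flowers it develops from. A gene was called when the ratio of (FPKM + 1) reached 4 and the higher organ had 5 FPKM or more. All 7 genes were called higher in silique. By the same rule 7.26% of the 17793 rows that reached the minimum were higher in silique. The log2 ratio ran from 7.88 for SESA4 to 9.68 for SESA3 with a median of 8.97, against a median of 0.07 over all rows tested. CRA1 and CRU2 each had a log2 ratio of 9.38, and OLEO2 of 8.97. SESA1 and SESA2 were lower, at 8.48 and 8.23. At a fold of 100, chosen after the values were seen, all 7 genes were still called, against 0.377% of rows. The ratios of low values are understated by the added 1: without it, the inflorescence value of OLEO2 was 0.0833% of its silique value, the smallest share of the 7, and that of SESA4 0.407%, the largest.

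Silique against leaf gave the same calls with smaller ratios. All 7 genes were again called higher in silique, as were 12.2% of the 17451 rows tested. The log2 ratio ran from 7.15 for SESA4 to 8.33 for SESA3, with a median of 7.92 over the genes and 0.00 over all rows tested. At a fold of 100 all 7 were called, against 0.894% of rows, and 0.316% of 18697 rows passed that fold over both other organs. Both comparisons share the silique library.

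**Figure D3:**
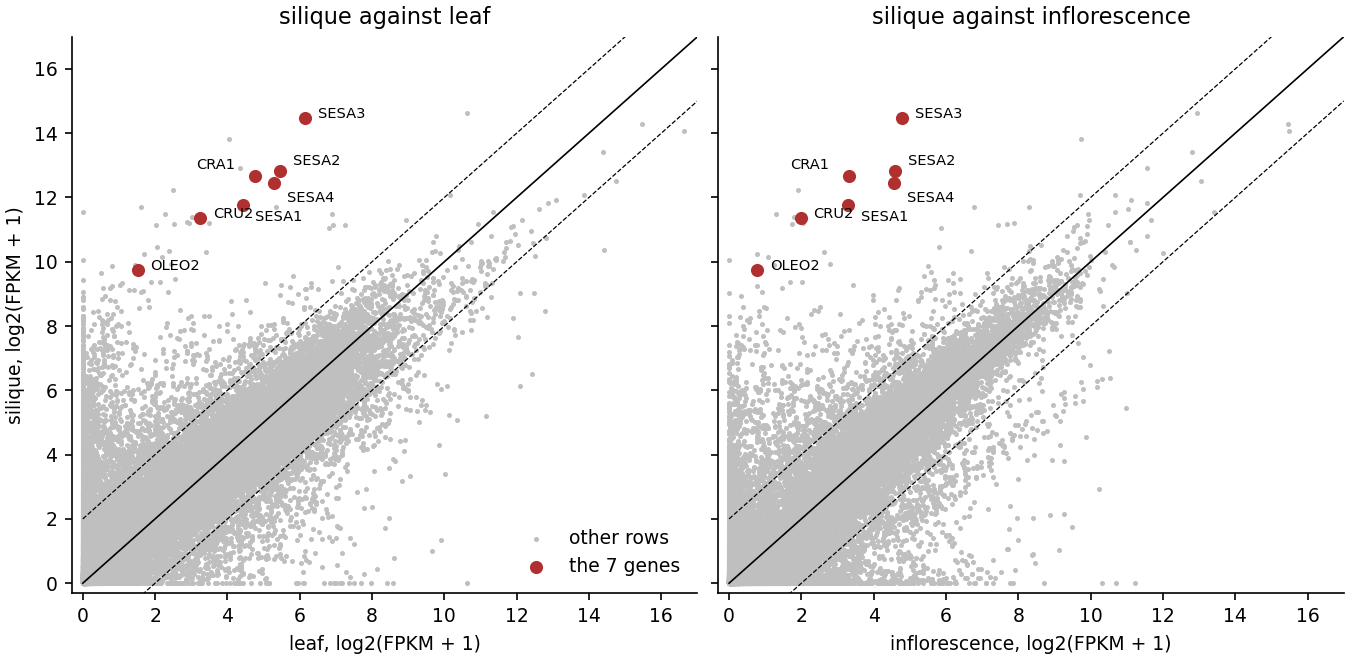
log2(FPKM + 1) in silique against leaf and against inflorescence for all 33857 rows (grey) and the 7 genes (red); the solid line marks equal values and the dashed lines a 4-fold ratio. All 7 genes lie in the upper left, at log2 ratios of 7.15 to 8.33 over leaf and 7.88 to 9.68 over inflorescence.

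Leaf against inflorescence compared the low levels outside the fruit. None of the 7 genes differed 4-fold between these organs, against 8.11% of 17444 rows higher in leaf and 12.1% higher in inflorescence. These shares are 1414 and 2105 rows, and with each library scaled to the same summed FPKM they became 854 and 2596. Each gene was nonetheless higher in leaf, by 1.68 times for SESA4, 1.85 for SESA2, 2.32 for SESA1, 2.62 for SESA3, 2.65 for OLEO2, 2.87 for CRU2 and 2.94 for CRA1. At a fold of 1.5, chosen after the values were seen, 6 of the 6 genes that reached 5 FPKM in either organ were higher in leaf, against 29.5% of rows. OLEO2 did not reach the minimum in either organ. The log2 ratios of (FPKM + 1), 0.72 to 1.46, fell to between 0.24 and 0.99 when each library was scaled to the same summed FPKM, a scaling that lowers every leaf over inflorescence log2 ratio by 0.50 before the 1 is added.

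The leaf and inflorescence values were low but above the lowest values listed. Values were multiplied by the width of the locus in kilobases. They were set against the mean of the 100 lowest such values above 0 in the same library. Those 100 were taken only from rows of 1500 to 2500 bp alone at their position. The albumin loci and OLEO2 are shorter than that. The inflorescence value of OLEO2, the lowest of all, was 31.3 times that mean, and the leaf value of OLEO2 was 57.8 times. For the other 6 genes this ratio was 197 to 649 in inflorescence and 317 to 1183 in leaf. Locus widths include introns, so these ratios are a rough guide. The yardstick is the extreme low end, so a high ratio sets a value apart from that floor only. At 0.712 FPKM, OLEO2 in inflorescence was under the 1 FPKM used for detection.

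As a share of silique, the leaf values of the 7 genes were 0.221% to 0.684% and the inflorescence values 0.0833% to 0.407%. Among the 231 rows with at least 500 FPKM in silique, a floor set after the values were seen, the median share was 61.5% in leaf and 54.1% in inflorescence. Of these rows, 24 were under 1% of silique in both other organs, the 7 genes among them. Of the other 17, 13 were higher in leaf than in inflorescence, 3 were lower and 1 was listed at 0 in both.

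**Figure D4:**
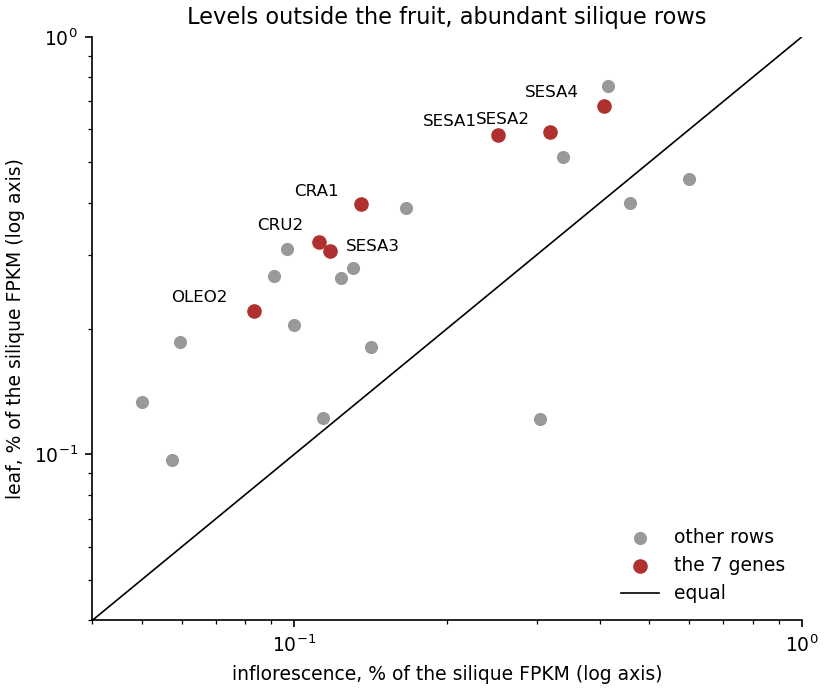
Leaf against inflorescence level, each as a percent of the silique FPKM on log axes, for rows with at least 500 FPKM in silique and under 1% of it in both other organs; the row listed at 0 in both is not drawn. The 7 genes (red) lie above the line of equality, at 0.221% to 0.684% in leaf and 0.0833% to 0.407% in inflorescence.

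Of 13 measured markers of seed tissues, 1 reached 1 FPKM in leaf, 5 did in inflorescence and 13 in silique, and 3 were listed at 0 in leaf. The 4 measured endosperm markers summed to 1256 FPKM in silique, 2.35 in leaf and 2.34 in inflorescence. In leaf 2.22 FPKM of that sum came from EPR1, an endosperm extensin-like gene, and MYB118 and AT1G48930 were listed at 0. The 5 embryo markers summed to 128 FPKM in silique, 0.283 in leaf and 23.6 in inflorescence. LEC1 was listed at 0 in leaf, and 23.3 FPKM of the inflorescence sum came from WOX9, a homeobox gene also active in shoot meristems. The 4 seed coat markers summed to 809 FPKM in silique, 1.26 in leaf and 111 in inflorescence, and in inflorescence STK, the ovule identity gene, supplied 70.5 FPKM and BAN 36.1. As a share of silique, the leaf sums were 0.188% for endosperm, 0.221% for embryo and 0.156% for seed coat, beside 0.423% for the 7 genes together. The inflorescence sums were 0.186%, 18.5% and 13.7% in the same order, beside 0.191% for the 7 genes. The endosperm share sets unlike genes against each other. PHE1 supplied 1.49 FPKM of the inflorescence sum, while EPR1 supplied 1199 FPKM of the silique sum. Singly, the inflorescence share was 0.0596% for EPR1, 0.216% for AT1G48930, 0.386% for MYB118 and 13.1% for PHE1. No embryo marker was above 0.116 FPKM in leaf, so that share rests on very low values. The part of seed tissue or of RNA from the silique sample in the leaf and inflorescence values was not tested.

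The organ labels were checked on other markers. The 5 leaf markers were all highest in leaf, with RBCS1A, a Rubisco small subunit gene, at 21488 FPKM against 7169 in inflorescence and 10868 in silique. The 6 inflorescence markers were all highest in inflorescence, and the tapetum gene A9 was listed at 0 in the other organs. Among 3 fruit wall and valve margin markers, IND and NST1 were highest in silique, at 10.1 and 10.2 FPKM. FUL was lowest in silique, at 44.2 FPKM against 61.0 in inflorescence and 58.3 in leaf.

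The storage protein genes outside the 7 had the same direction. All 7 of them were called higher in silique than in inflorescence and than in leaf, beside 7.26% and 12.2% of all rows tested. The median log2 ratio of these 7 was 6.52 over inflorescence and 6.71 over leaf. SESA5, an albumin gene outside the array, had 1260 FPKM in silique, 9.63 in leaf and 5.22 in inflorescence. CRU3, the third main globulin gene, had 2111, 111 and 57.5 FPKM, so its leaf and inflorescence values were 5.25% and 2.72% of its silique value. In leaf and inflorescence CRU3 stood above all 7 genes, while in silique it stood between CRU2 and OLEO2. The vicilin-like genes PAP85 and AT2G28490 were at 265 and 255 FPKM in silique and under 3 FPKM elsewhere, and AT2G18540 was at 12.2 FPKM in silique.

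Of 9 other oil body genes measured, 7 were called higher in silique than in inflorescence and 8 than in leaf. OLEO1, also on the list, had no named row and is not counted, so the order among oleosins leaves it out. The shares among all rows tested were 7.26% and 12.2%. Median log2 ratios of the 8 oil body genes detected were 6.14 and 6.36. OLEO4 was at 978 FPKM in silique, above OLEO2, with 4.45 in leaf and 5.87 in inflorescence. The oleosin genes AT3G01570 and OLEO3 were at 662 and 332 FPKM in silique. OLEO3 was higher in inflorescence than in leaf, at 3.78 against 0.599 FPKM, the opposite order to OLEO2. The oleosin gene AT2G25890 was not called over inflorescence, at 8.80 FPKM there and 15.5 in silique, and AT3G18570 was at 4.53 and 48.2. CLO1, a calcium-binding caleosin gene, was at 224 FPKM in silique, against 1.45 in leaf and 0.660 in inflorescence. HSD1, a steroleosin gene, was listed at 0 in every organ.

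Late embryogenesis genes, whose products protect cells as the seed dries, had a lower median in silique than the storage genes, with overlap. Of 11 measured, 6 were called higher in silique than in inflorescence and 6 than in leaf, beside 7.26% and 12.2% of all rows. The median of the 11 was 21.6 FPKM in silique, against 5599 for the 7 genes and 255 for the other storage protein genes. PER1, a seed peroxiredoxin gene, was the highest at 182 FPKM, followed by LEA76 at 110, so PER1 was level with the cupin gene AT1G03890 at 182. EM1 and EM6, classic markers of late maturation, were at 27.4 and 4.76 FPKM in silique, and M10 was at 1.08. RAB28 had 4.81 FPKM in silique, with 3.65 in inflorescence. RAB18, which also responds to drought and abscisic acid in vegetative tissue, was at 44.8 FPKM in leaf and 72.9 in silique.

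In the activating network of transcription factors, FUS3, NF-YB6 and EEL had no named row, so no value is given for them. Of the 10 genes with a named row, 3 were called higher in silique than in inflorescence, beside 7.26% of all rows tested. These were LEC1, at 42.1 FPKM in silique against 0.193, ABI3, at 15.5 against 0.0557, and DPBF2, a seed bZIP factor, at 11.3 and listed at 0. The same 3 genes were higher in silique than in leaf, as was WRI1, a regulator of oil synthesis. WRI1 was at 30.4 FPKM in silique, against 2.35 in leaf and 8.49 in inflorescence. Over leaf, 12.2% of all rows tested were called higher in silique. The bZIP genes BZIP53, BZIP25 and BZO2H1 were in all organs, at 141, 54.9 and 27.1 FPKM in silique, 120, 61.5 and 47.9 in leaf and 84.97, 52.2 and 25.9 in inflorescence. ABI5, which acts in late maturation, was higher in inflorescence, at 13.4 FPKM, than in silique, at 5.07, and was not called. LEC2 and ABI4 were at 4.17 and 2.56 FPKM in silique and under 0.1 elsewhere, below the minimum for a call.

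None of 5 measured repressor genes differed 4-fold in any pair. Of all rows tested, 7.26% were called higher in silique than in inflorescence and 12.2% than in leaf. In the other direction, 982 of 17793 rows were higher in inflorescence and 1037 of 17451 in leaf. Between leaf and inflorescence, 8.11% were higher in leaf and 12.1% in inflorescence. Most rows were thus not called in a given pair, so the lack of a call among 5 genes says little about repressors. HSI2, a B3-domain repressor, had 13.5 FPKM in silique, 9.34 in leaf and 8.46 in inflorescence, and its relative HSL1 had 14.0, 14.4 and 10.7 FPKM. The Polycomb methyltransferase genes CLF and SWN had 5.60 and 28.2 FPKM in silique, 3.59 and 25.4 in leaf and 7.94 and 16.3 in inflorescence. ASIL1 had 19.1, 17.4 and 19.6 FPKM.

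Of 3 measured genes of storage protein sorting and cleavage, BETA-VPE, the vacuolar processing enzyme of seeds, was called higher in silique, at 49.0 FPKM against 2.41 in inflorescence and 2.79 in leaf. Among all rows tested, 7.26% were called over inflorescence and 12.2% over leaf, and 3 genes are few to set beside these shares. The vacuolar protease genes APA1 and ALP were high everywhere, at 380 and 437 FPKM in silique and 499 and 918 in leaf.

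Among 9 measured genes of seed oil synthesis, FAE1, which elongates fatty acids for seed oil, was the 1 gene called, at 58.3 FPKM in silique against 0.0539 in inflorescence and 0.116 in leaf. That count is close to the share of all rows called, 7.26% over inflorescence and 12.2% over leaf. FAD2 and FAD3, desaturases of many tissues, had 961 and 169 FPKM in silique, with 703 and 191 in inflorescence. KASI, of fatty acid synthesis in plastids, had 253 FPKM in silique, with 96.1 in inflorescence, and PDH-E1 ALPHA, of the plastid pyruvate dehydrogenase, had 229 with 153. The lowest ratios of the list were those of ROD1, with 34.4 FPKM in silique and 48.6 in inflorescence, and PDAT, with 14.8 and 17.8. Of 7 genes of reserve breakdown, which is best known from germination, ICL and MLS of the glyoxylate cycle were called higher in silique, at 46.5 and 26.0 FPKM against 1.59 and 0.417 in inflorescence, and the other 5 were not called in either direction. The same shares of all rows, 7.26% and 12.2%, stand beside this count. The thiolase gene PKT3 had 252 FPKM in silique, with 168 in inflorescence. LACS6, which activates fatty acids in peroxisomes, had 39.7 FPKM in silique, 67.3 in leaf and 39.4 in inflorescence, and PXA1, their peroxisomal importer, had 15.9, 26.0 and 19.5.

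**Figure D5:**
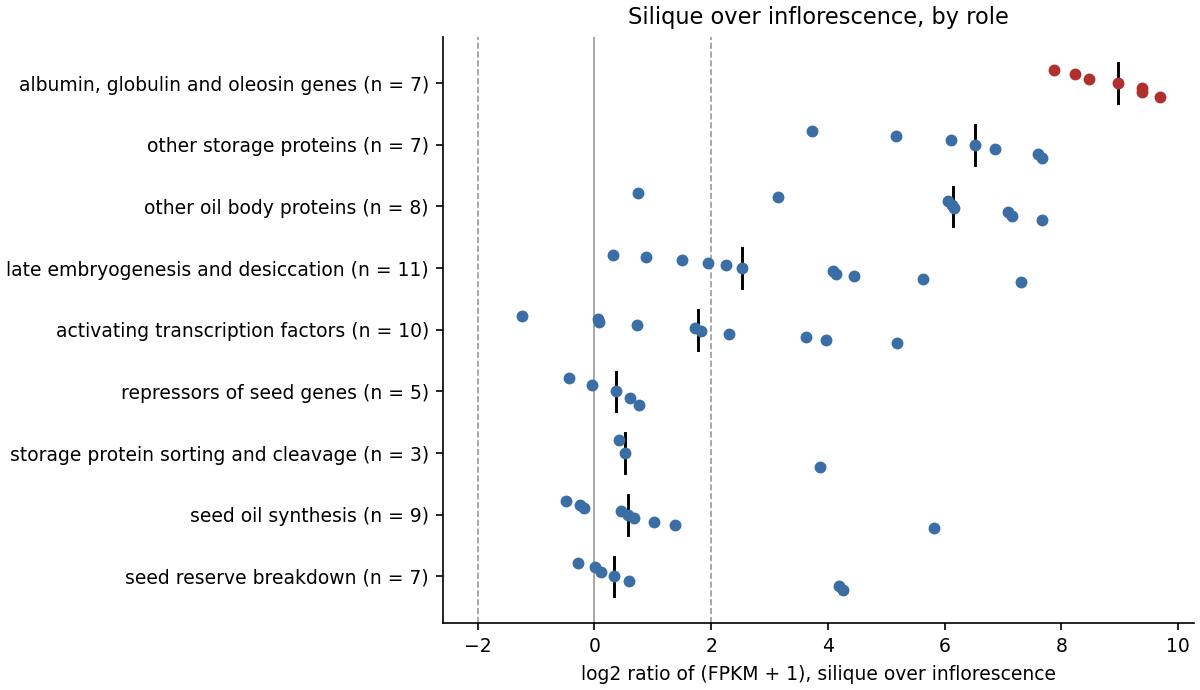
log2 ratio of (FPKM + 1) in silique over inflorescence for the 7 genes (red) and the detected genes of 8 lists (blue), with the median of each as a black bar, equal values as a solid line and a 4-fold ratio as dashed lines. The 7 genes lie at 7.88 to 9.68, other storage and oil body genes have medians of 6.52 and 6.14, and the repressor list has a median of 0.36.

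The profiles most like that of the 7 genes were found by the Euclidean distance of log2(FPKM + 1) over the 3 organs from their mean profile, a measure over 3 libraries only. The nearest named locus was AT1G62080 at a distance of 2.21, with 2694 FPKM in silique, 7.18 in leaf and 2.46 in inflorescence. It was followed by SESA5 at 2.25, AT1G62000 at 2.26, AT5G38160 at 2.39 and AT1G62060 at 2.67. The 7 genes themselves lay between 0.411, for SESA1, and 4.56, for OLEO2, from their own mean. Thus 3 of the 4 albumins and both globulins were nearer to it than AT1G62080. Each of the 7 genes enters that mean, which favours them, so this order shows no tighter grouping. Taken singly, SESA2 and SESA4 were each other's nearest named locus, at a distance of 0.408, and so were SESA1 and CRA1, at 0.960. The nearest locus to SESA3 was SESA2, at 1.80. CRU2 was nearest to AT1G62080, at 0.293, and OLEO2 to EPR1, at 0.512, which had 1199 FPKM in silique, 2.22 in leaf and 0.715 in inflorescence.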

How the data were processed

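The authors deposited 1 table per organ with an identifier, a locus and an FPKM value per row, per the file headers. The submitters' processing notes name TopHat and TAIR10. Versions, the quantification tool, the denominator of the FPKM and a scaling of libraries were not given in the sources used here. Depth is unknown. As FPKM is a relative unit, abundant transcripts in a library can lower its other values; this was not tested.

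Starts were raised by 1 to count from 1. A row was named when alone at its position and matched by exactly 1 gene of the TAIR10.1 reference table (at least 50% of each within the other), which named 26029 rows. A call needed a 4-fold ratio of (FPKM + 1) and at least 5 FPKM in the higher organ. Detection meant 1 FPKM. Medians of lists cover detected genes. The members, lists and rules were chosen with earlier results of these data known. Of 76 genes in 8 pathway lists 61 could be named, and of 32 markers 27. Genes called measured are those with a named row. A gene without one can still have a value in an unnamed row. Per list, the 4 genes highest in silique and the 2 with the lowest silique over inflorescence ratio were named in the text. ABI3, DPBF2, LEC2, ABI4, EM6, HSD1 and FAE1 were added after their values were seen. The call rule was run on simulated data with known folds and little noise. That run checks only that the rule was coded as stated, not how far libraries of 1 organ differ. Promoter and protein sequences were not analysed here, so the planned motif and protein comparisons were not made. Python 3.11.15 with pandas 2.3.3 and NumPy 2.4.6 was used.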

Additional observations from a re-analysis of the deposited data

How the results depend on the processing

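All 7 genes were called higher in silique than in leaf and inflorescence at pseudocounts of 0.1 and 5, minima of 0 and 20 FPKM, folds of 2, 8, 16 and 100, both scalings between libraries and with rows alone at their position. The log2 ratios over these pseudocounts and scalings ran from 7.23 to 10.04 over inflorescence and from 6.96 to 8.75 over leaf. For leaf over inflorescence the count of genes called, 0 at 4-fold, was 4 at 2-fold and 6 at 1.5-fold, and the log2 ratios stayed above 0, between 0.24 and 1.54. The share of summed FPKM taken by the 7 genes in leaf, inflorescence and silique was 0.0262%, 0.0141% and 6.05% without the 100 highest other rows, and 0.0243%, 0.0146% and 5.77% over rows alone at their position. Over nuclear rows it was 0.0164% in leaf and 4.63% in silique. Of all rows, 1291 were called higher in silique than in inflorescence, 700 at a pseudocount of 5, 814 at a minimum of 20 FPKM, 2587 at 2-fold, 690 at 8-fold and 371 at 16-fold. Over leaf the counts were 2121, 1116, 1164, 3682, 1278 and 750. For leaf over inflorescence 1414 rows were higher in leaf and 2105 in inflorescence, 870 and 969 at a pseudocount of 5, 1109 and 997 at 20 FPKM, 854 and 2596 at equal summed FPKM, and 3355 and 3455, 523 and 1207, and 204 and 600 at folds of 2, 8 and 16. No paired analysis was possible because each organ had 1 library. Depth is unknown, so no interval could be given.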
